A study of Mus musculus with 80 samples.

Results

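The transcripts described here belong to the two-cell-like state of mouse embryonic stem cells (ESCs). The set holds 6 genes, Zscan4c, Zscan4d, Zscan4f, Zfp352, Tcstv1 and Tcstv3, chosen by symbol from the 25965 rows of the deposited expression table, and each symbol matched 1 row. E14 ESCs, a wild-type mouse line grown in culture, were kept in serum medium with LIF or moved to 2i, a serum-free medium with LIF, the MEK inhibitor PD0325901 and the GSK3 inhibitor CHIR99021. RNA-seq covered 12 libraries, with 3 replicates each in serum and after 6, 24 and 72 h of 2i, and all 12 shared the E14 genotype and LIF. Chromatin immunoprecipitation for dimethylated lysine 9 of histone H3 (H3K9me2) gave 2 bound libraries each in serum, after 24 h of 2i and in long-term 2i (LT2i), with 1 input library per culture. The question was whether transcripts of the two-cell-like state change when ESCs leave serum, and whether H3K9me2 over these genes changes with the medium.

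In an ESC culture, a small and changing share of cells passes through a state in which transcripts of the late 2-cell embryo return. The transcription factor DUX activates many of these genes, often through binding sites in their promoters or in the long terminal repeats of MERVL, an endogenous retrovirus. The Zscan4 genes encode near-identical nuclear proteins with SCAN and zinc finger domains, known for their part in telomere lengthening and genome stability in ESCs, and are the standard markers of the state. Zfp352 encodes a zinc finger protein of the 2-cell embryo. Tcstv1 and Tcstv3 are members of a family first named for variable transcripts of the 2-cell stage. In bulk libraries fewer cells in the state and less RNA per cell cannot be told apart.

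All 3 Zscan4 genes lay in a tandem cluster on chromosome 7 (GRCm38), Zscan4c at chr7:11005722-11010547 and Zscan4f at chr7:11397915-11402741 on the plus strand, and Zscan4d at chr7:11161374-11166182 on the minus strand. Their promoters are shown because they carry, or miss by a base, the opening letters of the known binding sequence of DUX. The whole binding sequence was not searched, so a match below is a match of these letters only. The stretches below come from the RefSeq promoter windows (GRCm38.p6, 250 bases before to 50 after the annotated start), read 5′ to 3′ on the strand of the gene. They stand at chr7:11005545-11005702 for Zscan4c, chr7:11397738-11397895 for Zscan4f, chr7:11166202-11166359 for Zscan4d and chr7:10905070-10905227 for Zscan4b, a neighbouring copy. Capitals mark the place of the searched sequence TGATTNAAT, the letters TATAAA further on and, in Zscan4b, a match of the searched sequence on the other strand.
Zscan4c: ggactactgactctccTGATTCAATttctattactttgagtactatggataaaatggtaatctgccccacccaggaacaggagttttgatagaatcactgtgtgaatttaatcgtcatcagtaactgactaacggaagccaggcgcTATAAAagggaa
Zscan4f: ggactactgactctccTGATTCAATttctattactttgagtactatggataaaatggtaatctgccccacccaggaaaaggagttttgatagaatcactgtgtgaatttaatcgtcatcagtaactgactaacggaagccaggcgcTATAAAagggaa
Zscan4d: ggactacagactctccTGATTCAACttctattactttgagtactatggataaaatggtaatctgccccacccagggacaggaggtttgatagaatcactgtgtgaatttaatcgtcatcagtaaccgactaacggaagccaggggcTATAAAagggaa
Zscan4b: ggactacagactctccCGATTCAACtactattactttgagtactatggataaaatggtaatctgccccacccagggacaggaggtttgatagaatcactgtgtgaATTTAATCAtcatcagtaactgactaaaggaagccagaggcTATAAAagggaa

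Over these 158 bases Zscan4f differed from Zscan4c at 1 base (99.4% identity), Zscan4d at 6 (96.2%) and Zscan4b at 10 (93.7%). TGATTNAAT was found on either strand in 0.718% of the 32851 RefSeq promoter windows, and TATAAA on the strand of the gene in 8.32%. The search matched Zscan4c and Zscan4f. With positions counted from the first base of the match in Zscan4c, Zscan4d carried the change T9C and had no match in its window. Zscan4b carried T1C and T9C there and matched at the other place marked. No letter of TGATTNAAT overlapped TATAAA in the stretches shown.

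The Zfp352 window, at chr4:90218570-90218869 on the plus strand, held no match of TGATTNAAT. It is shown because it opened with a tandem repeat that the Zscan4 windows lacked. The stretch below covers chr4:90218570-90218759, and capitals mark GGACAACAC, a unit searched after the sequence had been seen. The unit occurred 8 times, and 0.103% of all windows held it at least 1 time on the strand of the gene.
Zfp352: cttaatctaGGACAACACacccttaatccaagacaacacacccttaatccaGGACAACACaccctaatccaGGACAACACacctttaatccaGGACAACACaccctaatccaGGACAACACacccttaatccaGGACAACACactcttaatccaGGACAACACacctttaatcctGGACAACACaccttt

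Tcstv1 (chr13:119893467-119894746, minus strand) and Tcstv3 (chr13:120317567-120318076, plus strand) lay near the end of chromosome 13, and no promoter of either was analysed here. Among the genes between them, AF067061 (chr13:120263191-120264364), a neighbour placed in the two-cell-like group, held TGATTNAAT. That sequence was found on either strand for 6 of the 28 genes of that group with a window, AF067061, Duxf3, Gm21761, Gm4027, Pramel6 and Zscan4b. Of these, Pramel6 fell at 24 h (log2 difference -2.93, SE 0.38, adjusted p = 7.3e-05 by limma), Gm4027 was not called (0.83, SE 0.33, adjusted p = 0.0546 by limma), and AF067061 and Zscan4b are described below. Pramel6 had few reads, 10 to 18 per library in serum, 1 to 2 at 24 h and 4 to 10 at 72 h. Duxf3 and Gm21761 were not in the expression table. Pramel6 and Gm4027 were named after their values were seen. The stretch at chr13:120262900-120262940 on the plus strand is given with the match in capitals.
AF067061: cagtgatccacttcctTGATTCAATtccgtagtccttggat

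Each RNA-seq library held 10317841 to 15271213 reads in genes, recovered as whole numbers from the deposited log2 values. Near-identical copies share reads, and none of the sources used here says how such reads were assigned, so values of single Zscan4 and Tcstv copies are uncertain, and a sum over the 5 listed Zscan4 copies is given too. The kit did not mark strand. All 8 ESC marker genes listed (Pou5f1, Sox2, Nanog, Klf4, Esrrb, Zfp42, Tdgf1 and Utf1) were read in every library, with 228 to 19718 reads each. Their calls went both ways, with 2 higher and 4 lower at 6 h, where 13.2% of all genes were called. At 24 h and at 72 h 4 were higher and 2 lower. Of the 6 fibroblast markers, Col1a1 had 282 to 1003 reads, Col1a2 95 to 200, Thy1 37 to 83, Col3a1 10 to 38, Dcn 0 to 4 and Lum 0 in every library, and of the 5 tested 2 were called lower at 24 h and 3 at 72 h. All 4 primed epiblast markers tested (Fgf5, Otx2, Pou3f1 and T) were called lower at 24 h and at 72 h, where 24.6% and 23.2% of all genes were. Of 5 primitive endoderm markers 2 were called higher and 2 lower at 24 h and 1 higher at 72 h. Of 5 trophoblast markers 2 were called higher and 2 lower at 24 h, 2 higher at 72 h and 3 higher at 72 h than at 24 h. Of all genes, 29.1% were called higher at 24 h and 23.1% at 72 h. At 72 h against 24 h, 2323 of the 17554 genes tested were called higher. The part of these marker lists in the results below was not tested.

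Levels in serum are given on the deposited log2 scale, corrected for gene length and depth. Zscan4f had a mean log2 level of 4.25 ± 0.36 (SD, n = 3) and Zscan4c 4.20 ± 0.33, a difference smaller than their spread. Zscan4d followed at 3.51 ± 0.41, with its highest library (3.79) just under the lowest of Zscan4c (3.81). The level of Tcstv3 was 1.16 ± 0.94 and overlapped that of Tcstv1 at 0.07 ± 0.16. Zfp352 was lowest at -1.08 ± 0.54 and did not overlap Tcstv1. In reads, the Zscan4 members drew 399 to 1299 per library over all 4 conditions, Tcstv1 23 to 86, Tcstv3 13 to 67 and Zfp352 16 to 33. The plot of levels by library shows each gene on its own axis.

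**Figure D1:**
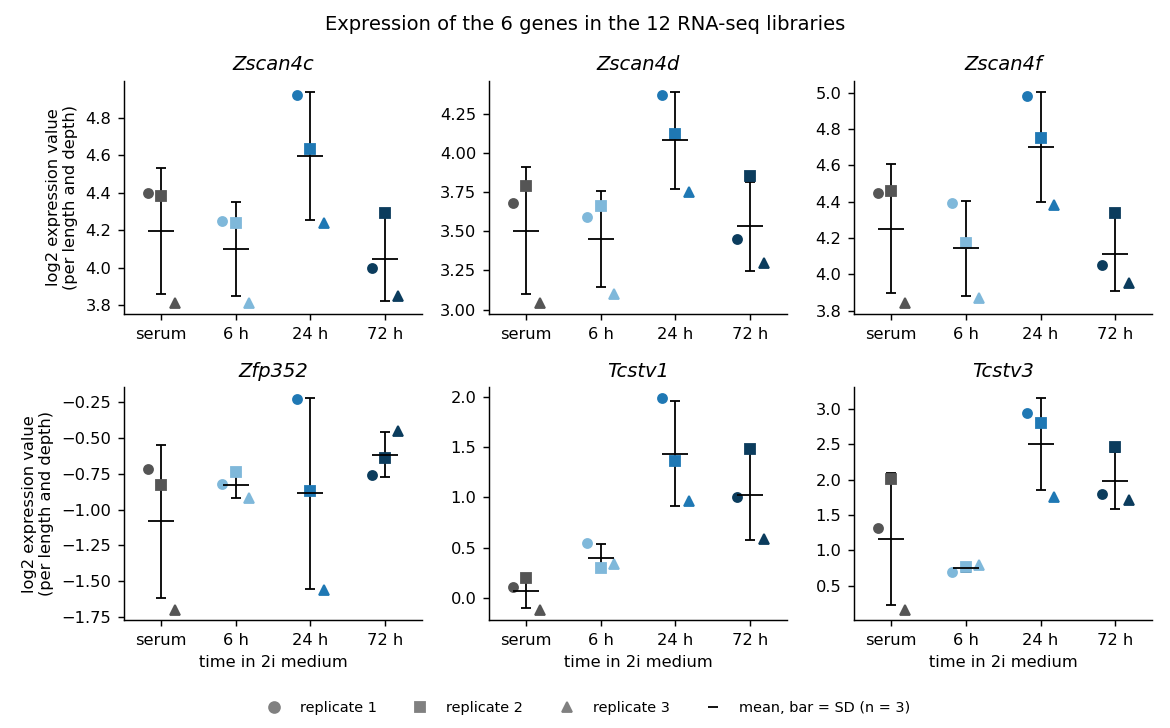
Deposited log2 expression value (vertical axis, corrected for gene length and library depth) of each of the 6 genes against time in 2i, with 1 symbol per library and the mean and SD of 3 replicates in black. Tcstv1 lay higher in all 3 libraries of 24 h and of 72 h than in serum, while each Zscan4 gene overlapped serum at every time.

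Tcstv1 rose after the move to 2i. Its log2 levels in serum were 0.11, 0.20 and -0.12 in replicates 1 to 3, from 26, 23 and 27 reads. After 6 h they were 0.55, 0.30 and 0.34, after 24 h 1.99, 1.36 and 0.96, and after 72 h 1.00, 1.48 and 0.59. The 24 h libraries held 86, 58 and 55 reads and the 72 h libraries 59, 66 and 37. Serum was below every later library, and the 24 h and 72 h groups overlapped each other. The log2 difference from serum was 1.37 (SE 0.27) at 24 h, a 2.58-fold increase, with an adjusted p of 0.00126 by limma. At 72 h it was 0.96 (SE 0.27, adjusted p = 0.0118 by limma), and this call was lost without replicate 2 of 72 h (adjusted p = 0.0527 by limma). At 6 h the difference of 0.33 (SE 0.27) did not pass the test (adjusted p = 0.531 by limma).

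Tcstv3 was called higher at 24 h and at neither other time. In serum its log2 levels were 1.32, 2.01 and 0.16, from 24, 32 and 13 reads, the widest spread of the 6 genes in that medium. After 6 h they were 0.69, 0.77 and 0.80, after 24 h 2.95, 2.81 and 1.76, and after 72 h 1.80, 2.46 and 1.71. The third library of 24 h lay below the second of serum, so the groups overlapped. The log2 difference was 1.34 (SE 0.42) at 24 h, with an adjusted p of 0.0187 by limma. That call was lost without serum replicate 3 (adjusted p = 0.0764 by limma), without replicate 1 of 24 h (0.0731) and without replicate 2 of 24 h (0.0691). At 72 h the difference was 0.83 (SE 0.42, adjusted p = 0.13 by limma), and at 6 h it was -0.41 (SE 0.42, adjusted p = 0.651 by limma). Without serum replicate 2 the 72 h difference became 1.25 and passed the test (adjusted p = 0.0297 by limma). It was the only 1 of the 6 fits without a single library to pass, and without serum replicate 3 the difference was 0.32 (adjusted p = 0.506 by limma).

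The Zscan4 members had their highest mean at 24 h, by a margin that did not pass the test. Zscan4c had log2 levels of 4.40, 4.38 and 3.81 in serum and 4.92, 4.63 and 4.24 at 24 h. Zscan4d had 3.68, 3.79 and 3.04 in serum and 4.37, 4.12 and 3.75 at 24 h. Zscan4f had 4.45, 4.46 and 3.84 in serum and 4.98, 4.75 and 4.38 at 24 h. Replicate 3 was the lowest library of each of these 3 genes in all 4 groups, and in each gene replicate 3 of 24 h lay below replicates 1 and 2 of serum or below 1 of them.

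The log2 differences at 24 h were 0.40 (SE 0.21) for Zscan4c, 0.57 (SE 0.24) for Zscan4d and 0.45 (SE 0.21) for Zscan4f, with adjusted p-values of 0.129, 0.0588 and 0.0826 by limma. Without replicate 3 of 24 h they became 0.58, 0.74 and 0.61 and all 3 passed (adjusted p = 0.0286, 0.0197 and 0.0222 by limma). That fit called 10615 of the 17554 genes tested, and it kept replicate 3 of serum. Without serum replicate 3 the differences were 0.21, 0.34 and 0.25, and without replicate 1 of 24 h 0.24, 0.43 and 0.32. In both of these fits none of the 3 was called. Without serum replicate 2 Zscan4d alone of the 3 passed, at 0.71 (adjusted p = 0.0426 by limma). At 6 h the differences were -0.10, -0.05 and -0.11, and at 72 h -0.15, 0.03 and -0.14, with a smallest adjusted p of 0.584 by limma.

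Zfp352 showed no called difference. Its reads were 26, 20 and 16 in serum and 22, 25 and 23 after 6 h. After 24 h they were 33, 22 and 17, and after 72 h 31, 27 and 32. The log2 levels ran from -1.70 to -0.72 in serum and from -0.76 to -0.45 at 72 h, with some overlap. The differences from serum were 0.25, 0.20 and 0.47 at 6, 24 and 72 h (SE 0.34 each), with adjusted p-values of 0.748, 0.647 and 0.283 by limma.

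**Figure D2:**
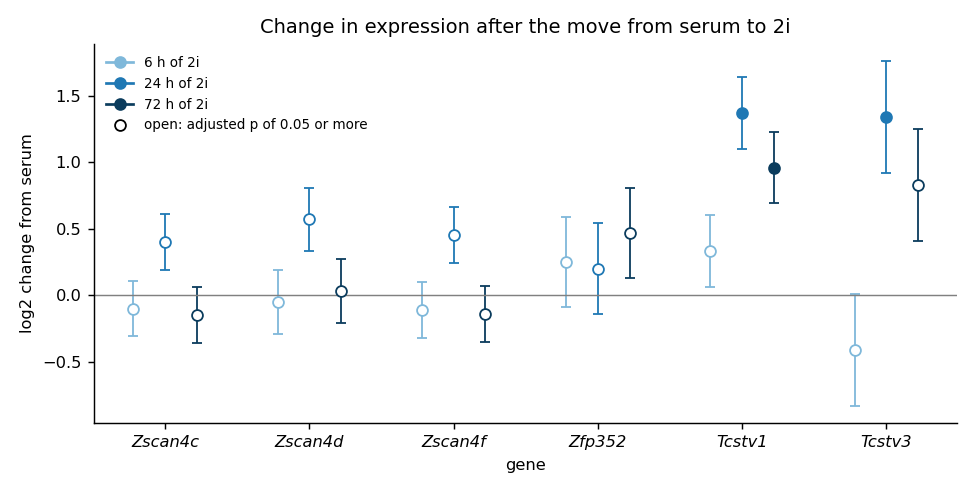
Log2 change from serum (vertical axis) of the 6 genes after 6, 24 and 72 h of 2i, with bars of 1 SE from the fit and filled points for an adjusted p under 0.05. Filled points belong to Tcstv1 at 24 h (1.37) and 72 h (0.96) and to Tcstv3 at 24 h (1.34).

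Across the set, 0 of the 6 genes were called by limma at 6 h (0 also at an unadjusted p under 0.05, and 0 by voom), where 13.2% of the 17554 genes tested were called. At 24 h 2 were called, both higher, where 53.7% of all genes were called and 29.1% called higher. At 72 h 1 was called, against 46.3% of all genes and 23.1% called higher. All 3 libraries stood above all 3 of serum for 1 gene, Tcstv1, both at 24 h (31.0% of all genes) and at 72 h (28.6%). Beside these shares, the counts of called members are no result about the set as a whole. The median log2 difference of the 6 was -0.08, 0.51 and 0.25 after 6, 24 and 72 h, and that of all genes tested was 0.04, 0.11 and -0.02. The comparisons with serum share the same serum libraries.

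At 72 h the mean levels of 5 of the 6 genes were below those of 24 h, without a call. The log2 differences of 72 h from 24 h were -0.55 (SE 0.21) for Zscan4c, -0.54 (SE 0.24) for Zscan4d and -0.59 (SE 0.21) for Zscan4f, with adjusted p-values of 0.071, 0.105 and 0.0527 by limma. In Zscan4f the highest 72 h library (4.34) lay just under the lowest 24 h library (4.38), while in Zscan4c and Zscan4d the groups overlapped. The share of all genes without overlap between these groups was not computed. For Tcstv1 the difference was -0.41 (SE 0.27), for Tcstv3 -0.51 (SE 0.42) and for Zfp352 0.27 (SE 0.34). By limma 0 of the 6 were called, where 27.2% of all genes were. Voom on recovered reads called 1 of the 6, and 5018 of all genes. An unadjusted p under 0.05 was met by 3 of the 6, a count that has no share of all genes beside it and is no result about the set. Without replicate 3 of 24 h the 3 Zscan4 genes passed, at -0.73, -0.71 and -0.75 (adjusted p = 0.0138, 0.0329 and 0.0125 by limma). That fit called 7762 of the 17554 genes tested, against 4777 with all libraries. Without replicate 1 of 24 h the differences were -0.39, -0.40 and -0.45, and none of these 3 genes was called. Without replicate 2 of 72 h Zscan4c and Zscan4f passed, at -0.67 and -0.70 (adjusted p = 0.0453 and 0.0372 by limma), in a fit that called 5600 genes.

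The table lists 5 Zscan4 copies, Zscan4b to Zscan4f, of which Zscan4e had no promoter window here. Summed over the 5, serum libraries held 277, 282 and 191 RPM (reads per 1000000 reads in genes), and 24 h libraries 366, 325 and 289. The sums at 6 h were 259, 253 and 197, and at 72 h 222, 273 and 217. In RPM every 24 h library was above every library of the other 3 groups, but not on the scaling of the deposited values, which sets libraries level at the 75th percentile and is used for the levels and tests above. On that scaling, in reads at the depth of serum replicate 1, the sums at 24 h were 4725, 4045 and 3222, and the last lay below serum replicates 1 and 2 (3473 and 3510) and 72 h replicate 2 (3232). Zscan4c, Zscan4d and Zscan4f together took 68.2% to 72.4% of these reads in serum and 74% to 78.2% after 24 h, with 68.7% to 72.8% after 6 h and 72.3% to 75.1% after 72 h.

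Zscan4b and Zscan4e had log2 differences from serum of 0.13 (SE 0.14) and 0.00 (SE 0.13) at 24 h, and neither was called. Both fell between 24 and 72 h. The difference was -0.41 (SE 0.14, adjusted p = 0.0417 by limma) for Zscan4b and -0.38 (SE 0.13, adjusted p = 0.0494 by limma) for Zscan4e. Against serum, Zscan4e was lower at 72 h (-0.38, SE 0.13, adjusted p = 0.0316 by limma). Their SEs were smaller than those of the 3 members. Whether the copies differed from each other in their response was not tested, since they can share reads.

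**Figure D3:**
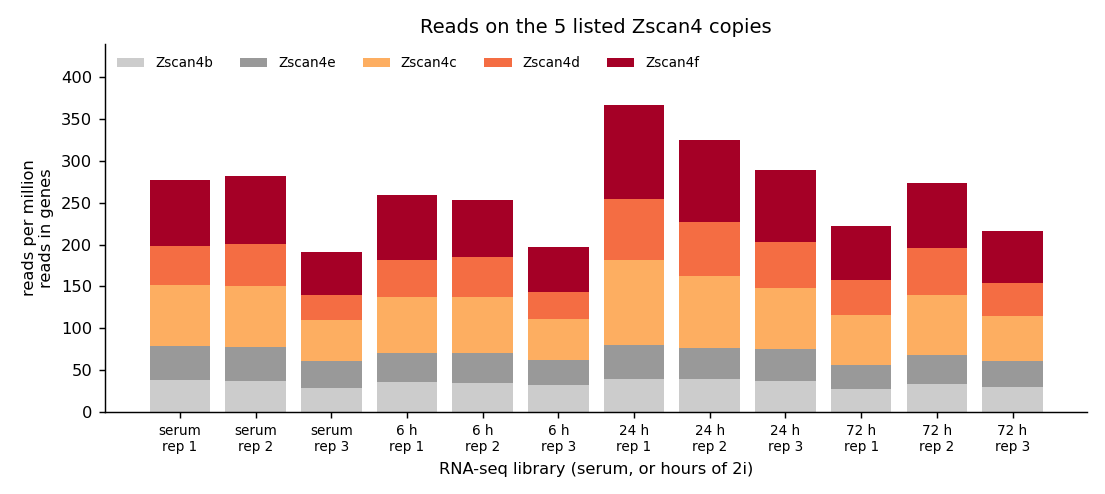
RPM (vertical axis, reads per 1000000 reads in genes) on the 5 listed Zscan4 copies, stacked, in each of the 12 RNA-seq libraries. The sum ran from 289 to 366 at 24 h and from 191 to 282 in the other libraries, a gap that is absent on the deposited scaling (3222 for 24 h replicate 3 against 3473 and 3510 for serum replicates 1 and 2), and the grey part (Zscan4b and Zscan4e) varied least.

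Levels of the 3 Zscan4 members ran together over the 12 libraries, as a description over genes that share sequence and reads (Pearson's r of 0.96 to 0.99). With Tcstv1 their r was 0.63 to 0.74, with Tcstv3 0.71 to 0.81 and with Zfp352 0.40 to 0.47. Tcstv1 and Tcstv3 had an r of 0.84. After each group's mean was taken off, the r of Zfp352 with the Zscan4 members was 0.74 to 0.80 and that of Tcstv1 was 0.76 to 0.81. Zfp352 went the other way at 72 h, where replicate 3, the lowest library for the Zscan4 members, was its highest (-0.45). The genes most like the mean of the 3 Zscan4 members among 17548 others were Eif3m (r = 0.973 over 12 libraries), a subunit of a translation initiation complex, Nufip1 (0.968), Rpl39l (0.967), a ribosomal protein paralogue, Wdr45l (0.964) and Mrps17 (0.963), a mitochondrial ribosomal protein. None of the 5 lies on chromosome 7, and all points share the same libraries and depth.

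Around Tcstv1 and Tcstv3 most of the measured genes rose. Within 200 kb of the pair, up to the last listed bin of chromosome 13, the table held 18 other rows, of which 16 passed the filter. At 24 h 13 of these were called higher and 3 lower, beside 29.1% of all genes called higher, and at 72 h 11 were higher and 1 lower, beside 23.1% and 23.2% of all genes. The increases at 24 h ran from 0.81 to 2.59 on the log2 scale. AF067061 had 45, 55 and 48 reads in serum and 54, 46 and 36 after 6 h. It had 233, 179 and 133 reads after 24 h and 120, 156 and 88 after 72 h. Its 24 h and 72 h libraries were all above those of serum. The log2 difference was 1.85 (SE 0.33, adjusted p = 0.00065 by limma) at 24 h and 1.17 (SE 0.33, adjusted p = 0.0121 by limma) at 72 h. B020031M17Rik rose by 1.74 (SE 0.40) at 24 h and 1.43 (SE 0.40) at 72 h, with adjusted p-values of 0.00343 and 0.012 by limma. The 3 rows called lower at 24 h were Zfp131, a zinc finger gene (-0.75), AC238811.3 (-1.14) and AC238940.2 (-1.03), named after their values were seen. Hmgcs1, an enzyme of cholesterol synthesis at the edge of the region, was 1 of those that rose. Several rows are short genes of one family, so part of their reads may be shared.

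**Figure D4:**
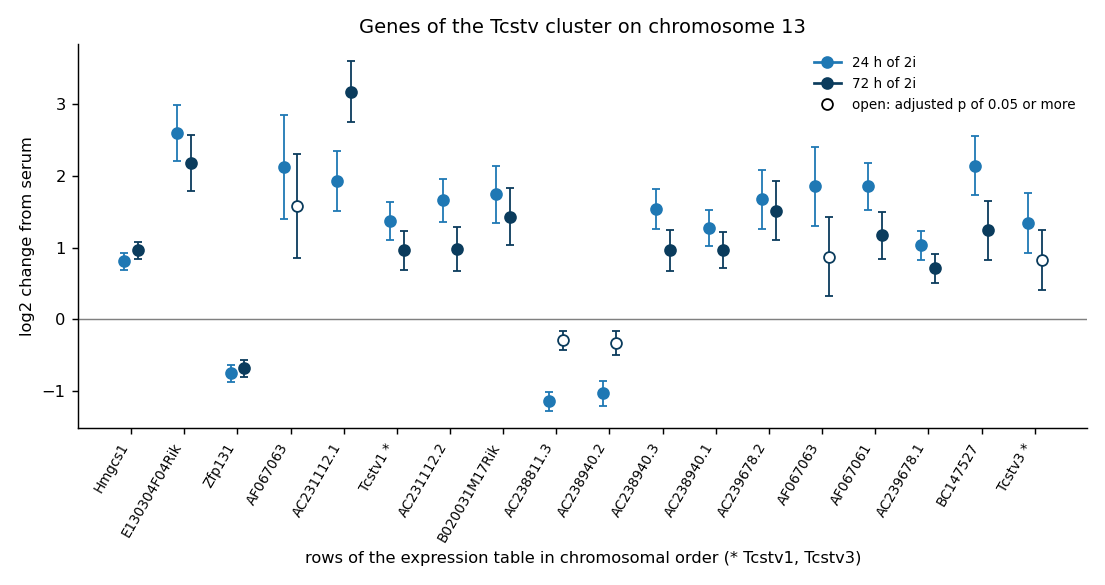
Log2 change from serum (vertical axis, bars of 1 SE) of the 18 tested rows around Tcstv1 and Tcstv3 in chromosomal order, at 24 and 72 h of 2i, with open points for an adjusted p of 0.05 or more. Points lie above 0 except for Zfp131, AC238811.3 and AC238940.2.

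The wider list of two-cell-like genes held called genes of both directions, at shares near or below those of all genes. Of 70 symbols listed, 45 were in the table, in 46 rows, and 41 rows passed the filter. These rows take in neighbours from the Zscan4 and Tcstv clusters, where reads may be shared, and several rows with few reads per library. At 6 h 1 was called higher (Pramef12) and 1 lower (Cyp2b23), where 13.2% of all genes were called. At 24 h 11 were higher, 5 lower and 25 not called, beside 29.1% of all genes called higher and 24.6% called lower. The median log2 difference of the list was 0.43, against 0.11 for all genes. At 72 h 8 were higher, 4 lower and 29 not called, beside 23.1% and 23.2% of all genes, with a median of 0.53 against -0.02. Between 24 and 72 h 5 rose and 3 fell, where 27.2% of all genes were called.

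The largest changes at 72 h among those called in some comparison were led by Obox6, an oocyte homeobox gene, which went from 1 to 4 reads per library in serum to 22 to 42 at 72 h (log2 difference 3.59, SE 0.69, adjusted p = 0.00124 by limma). Tmem92 rose by 1.22 (SE 0.23) at 24 h and 1.85 (SE 0.23) at 72 h, with adjusted p-values of 0.000911 and 4.85e-05 by limma. Sp110, a nuclear body gene, rose by 1.18 (SE 0.18) and 0.99 (SE 0.18). Ubtfl1 had 4 to 8 reads in serum and 13 to 19 at 72 h, and its difference of 1.44 passed (adjusted p = 0.0244 by limma). Pramef12 was higher by 0.90 (SE 0.12) at 72 h and not called at 24 h (-0.11, SE 0.12). The 2 rows of AF067063 held 0 to 3 reads per library in serum and 2 to 11 at 24 h, both called at 24 h and neither at 72 h.

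Cyp2b23, a cytochrome P450 gene, fell from 44 to 69 reads in serum to 0 to 2 at 24 h (log2 difference -5.45, SE 0.39, adjusted p = 1.03e-06 by limma) and stood at 7 to 16 at 72 h. Pramel7, a gene of the PRAME family, fell at 24 h (-2.58, SE 0.80, adjusted p = 0.0171 by limma), from 10 to 15 reads in serum to 0 to 10, and at 72 h its difference of -1.10 did not pass. Whether their course differed from that of the Zscan4 members was not tested.

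Of 33 genes listed as regulators of the state, 31 were in the table. Dux and Nelfa were not, so the expression of Dux itself could not be read. Among these 31, 3 were called higher and 7 lower at 6 h, where 13.2% of all genes were called. At 24 h 3 were higher and 21 lower, beside 24.6% of all genes called lower, and at 72 h 2 were higher and 15 lower, beside 23.2%. The median log2 difference was -0.81 at 24 h and -0.39 at 72 h, against 0.11 and -0.02 for all genes. Trim28, the corepressor of KRAB zinc finger proteins, fell (-1.20 at 24 h and -1.18 at 72 h, SE 0.14 each). Of the chromatin assembly factor CAF-1, Chaf1a fell (-0.84 and -0.85, SE 0.17 each) and its partner Chaf1b, named after its values were seen, rose (1.04 and 0.82, SE 0.15 each). Ehmt2 and Ehmt1, which form the enzyme that writes H3K9me2, fell by 1.00 (SE 0.12) and 1.19 (SE 0.18) at 24 h, with adjusted p-values of 4.28e-05 and 0.000204 by limma, and at 72 h the differences were -1.11 and -1.41. Rif1, a factor of replication timing, fell by 2.07 (SE 0.21) at 24 h and by 1.29 (SE 0.21) at 72 h. Mga and Ep400, of a Polycomb complex and of a histone acetyltransferase complex, fell by 1.64 (SE 0.28) and 1.72 (SE 0.32) at 24 h. At 72 h their differences were -0.99 and -0.85, with adjusted p-values of 0.0125 and 0.0457 by limma. The 24 h libraries of both genes stood far apart, with an SD of the log2 level of 0.56 for Mga (0.04 in serum) and 0.71 for Ep400 (0.16 in serum). Rif1 (0.42 at 24 h, 0.04 in serum) and Ehmt1 (0.38 at 24 h, 0.10 in serum) also spread more widely. At 72 h the SD was 0.56 for Mga, 0.52 for Ep400, 0.40 for Rif1 and 0.26 for Ehmt1.

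Myc, with the largest change of the regulators at 72 h, fell by 5.48 at 24 h and fell by 5.79 at 72 h (SE 0.12 each). Lin28a, an RNA-binding protein, fell by 1.45 at 24 h and 3.91 at 72 h (SE 0.10 each). Tbx3, a transcription factor of the naive state, rose by 0.50 (SE 0.16) and 1.49 (SE 0.16). Dppa2 and Dppa4, known activators of Dux and named after their values were seen, fell by 1.68 and 1.11 at 24 h (SE 0.11 each) and by 0.71 and 0.78 at 72 h. Whether any of these moved together with the 6 genes beyond sharing the libraries was not tested.

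H3K9me2 was deposited as log2 reads in bins of 2000 bp, and 1026637 bins were listed, 77.4% of those possible. Every listed bin held at least 6 to 8 reads in each input, while bound libraries reached 0, and no bin poorer in input reads was listed. Of 400 bins possible within 200 kb of the Zscan4 cluster, 0 were listed, and the same held for the 10 kb on either side of Tcstv1. Thus H3K9me2 could not be read over Zscan4c, Zscan4d, Zscan4f or Tcstv1. A total of 2363 genes (9.1% of the table) lacked a listed bin. Tcstv3 met 1 listed bin by 76 bp, with 2 to 10 reads in the bound libraries, too few for the filter of 10 reads on average. With a filter of 1 read in 1 library its log2 difference in LT2i against serum was 1.25 (adjusted p = 0.0205 by limma), from 6 and 2 reads in serum and 10 and 10 in LT2i. With 10 kb on either side, which took in 4 listed bins, it was 0.16 (SE 0.25, adjusted p = 0.553 by limma).

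Zfp352 was the only member with a tested H3K9me2 value, from 2 of its 4 bins (chr4:90220001-90224000). Its bound reads were 36 and 40 in serum, 33 and 33 at 24 h and 48 and 38 in LT2i, and its input reads were 20, 22 and 32. In RPM, here reads per 1000000 reads in bins, bound signal was 1.87 and 2.16 in serum, 2.29 and 2.21 at 24 h and 2.64 and 2.43 in LT2i, and input signal was 1.01, 0.925 and 2.02. On the log2 scale, bound over input was 0.82 and 1.02 in serum, 1.22 and 1.17 at 24 h and 0.37 and 0.26 in LT2i. These values lay above those of 97.5% to 99.5% of the genes tested in serum and at 24 h, and above 81.5% to 84% in LT2i, where the single input was also highest.

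Without input, the log2 difference in bound signal of Zfp352 was 0.16 (SE 0.23) at 24 h against serum, 0.32 (SE 0.23) in LT2i against serum and 0.16 (SE 0.23) in LT2i against 24 h. Adjusted p-values were 0.816, 0.227 and 0.558 by limma, so Zfp352 was called in none of the 3 comparisons, where 3.09%, 68.6% and 64.3% of the 19918 genes tested were called. The median difference of all genes was -0.05, -0.65 and -0.56, so that Zfp352 stood 0.97 above the median in LT2i against serum. With quantile normalization Zfp352 was called in LT2i against serum (1.02, adjusted p = 0.000499 by limma) and against 24 h (0.86, adjusted p = 0.0027 by limma). With 10 kb on either side it was called in LT2i against serum only (0.47, adjusted p = 0.00715 by limma). With input subtracted, the LT2i difference was -0.60 against serum, equal to the median of all genes in that setting (-0.60). It rests on single inputs of 20 reads in serum and 32 in LT2i and is given with no test, since the error of the input cannot be estimated. Reads were scaled to the total of each library, so a loss over the whole genome would not show.

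Signal over the surroundings went different ways. In 122 listed bins of 204 possible within 200 kb of Zfp352, the ratio of bound to input RPM was 1.15 and 1.26 in serum, 1.26 and 1.31 at 24 h and 1.38 and 1.43 in LT2i. In 64 listed bins of 314 possible around Tcstv1 and Tcstv3 it was 0.584 and 0.51 in serum, 0.432 and 0.461 at 24 h and 0.368 and 0.364 in LT2i. With 2 bound libraries and 1 input per culture these ratios are given as values with no test. The median log2 bound over input of all genes tested also fell, from -0.56 and -0.65 in serum to -1.28 and -1.38 in LT2i. Of the bins listed around the Tcstv pair, 0 lay within 10 kb of Tcstv1 and 4 within 10 kb of Tcstv3. A link between these ratios and expression was not tested.

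**Figure D5:**
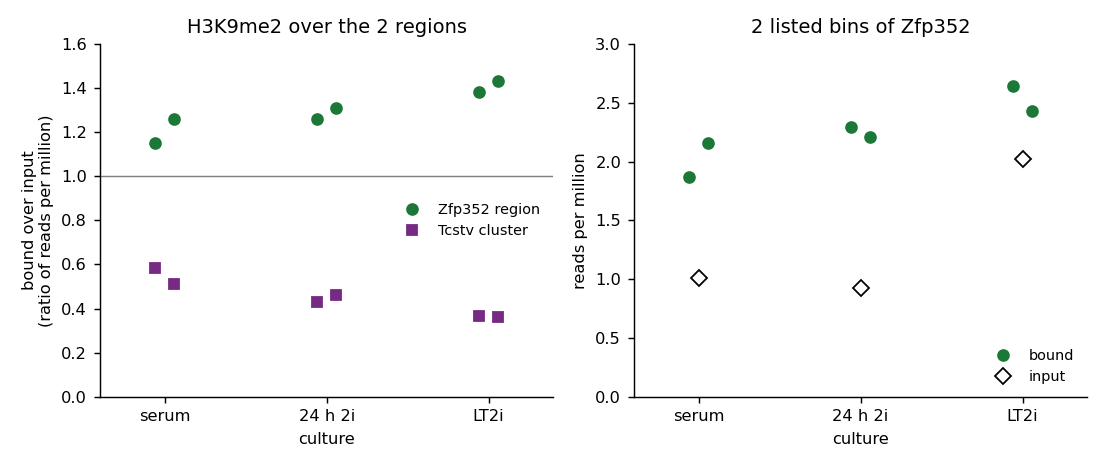
Left, H3K9me2 as the ratio of bound to input RPM (vertical axis) over listed bins within 200 kb of Zfp352 and of the Tcstv pair, with 1 point per bound library and a line at 1. Right, RPM in the 2 listed bins of Zfp352 for bound libraries (circles) and inputs (diamonds), where the LT2i input of 2.02 lay above the other inputs (0.925 and 1.01).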

How the data were processed

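The RNA-seq table deposited by the authors holds log2 values of genes, after length and depth correction and scaling to a common 75th percentile (2.51 in each library). For H3K9me2 ChIP-seq they deposited log2 reads per bin, scaled to the largest library, for 9 libraries. The submitters' processing notes list Trim Galore 0.3.5, TopHat2 2.0.11, Bowtie2 and Bismark 0.12.3, and the coordinates used here are GRCm38. An empty gene or bin had been entered as 0.9 reads. Whole reads were recovered within 0.02 for 99.8% of the 25965 genes and for all bins, so that each assigned RNA-seq read had been counted whole. Precision is limited by these reads and by 3 or 2 replicates.

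Values of 17554 genes with reads in at least 6 of 12 libraries were fitted with limma 3.58.1 (R 4.3.3, trended variance, all 4 groups). ChIP-seq reads of listed bins overlapping a gene were summed, scaled to 1000000 reads with 0.1 added, put on the log2 scale and fitted alike for 19918 genes with a mean of 10 reads. Calls used a Benjamini-Hochberg adjusted p under 0.05. Replicates were described as biological for RNA-seq, and for ChIP-seq p-values measure only the spread between libraries. Both fits were run on simulated data with independent normal noise in each library. That run checks the computation and not how far real libraries deviate together. The members and gene lists were chosen with earlier results of these data known. All 6 members were described in every comparison. From each of the 2 other lists, at most 10 genes with the largest change at 72 h among those called were named by rule, and Pramel6, Gm4027, Chaf1b, Dppa2 and Dppa4 were added after their values had been seen. The 5 genes most like Zscan4 were taken by Pearson's r. Bisulfite libraries, which use NCBIM37, were not used here. Protein sequences were not analysed here. Alternatives were other filters, scalings, blocks and leaving out each replicate, and voom on recovered reads was added after the data had been seen.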

Additional observations from a re-analysis of the deposited data

How the results depend on the processing

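Tcstv1 at 24 h was called under every alternative run, with log2 differences from 0.87 to 1.61, and none of the 6 genes was called at 6 h under any. Members called ran from 1 to 5 at 24 h, 0 to 2 at 72 h and 0 to 3 between 72 and 24 h as single libraries were left out. With only the 6 libraries compared 1 member was called at 24 h (Tcstv3 at an adjusted p of 0.0537 by limma). With a log2 change of 1 or more also asked for, 0 were called at 72 h. With voom 1 was called between 72 and 24 h (Zscan4f, adjusted p = 0.0467), where 5018 of all genes were. Same-numbered RNA-seq libraries deviated together with r from -0.08 to 0.549, and 4 of 12 deviated most like their own number in every other group. These 4 were the replicate 3 libraries, whose 6 pairs had r from 0.186 to 0.549, as a hint from the data. The labels name no shared origin and not every pair was over 0.1, so the numbers were not taken to pair the samples. With the replicate block 5 members were called at 24 h, among them Zscan4c, Zscan4d and Zscan4f (adjusted p = 0.0103, 0.00233 and 0.00693 by limma), 2 at 72 h and 3, these same Zscan4 genes, between 72 and 24 h (0.00403, 0.00672 and 0.00374). Of the 17554 genes tested, that fit called 10590 at 24 h, 9370 at 72 h and 6852 between 72 and 24 h. The block gave 1332 called genes for H3K9me2 at 24 h, where the ChIP-seq correlations were 0.004 to 0.092.

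Over all genes, leaving out single libraries gave 1423 to 1691 calls at 6 h (2324 with all), 2988 to 7762 between 72 and 24 h (4777 with all), 7929 to 10615 at 24 h and 6855 to 8111 at 72 h. For H3K9me2 it gave 0 to 306 at 24 h (616 with all), 11517 to 13132 in LT2i against serum and 10647 to 12334 against 24 h. Only the 6 libraries compared gave 4089 calls at 6 h and 2161 between 72 and 24 h. A log2 change of 1 or more left 1110, 4952, 4237 and 2137 calls at 6, 24 and 72 h and between 72 and 24 h. For H3K9me2 at 24 h, input subtraction left 5 genes (a count without the error of the inputs), the bin of the gene start 4 and a filter of 1 read in 1 library 272. The gene start gave 1351 calls in LT2i against serum and 1026 against 24 h. Quantile normalization moved the median of all genes in LT2i against serum from -0.65 to -0.03 and the share of calls that were higher from 13.3% to 50.9%.

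Directions turned in some settings for differences that were not called. Without single replicates the 6 h differences ran from -0.29 to 0.04 for Zscan4c, from -0.29 to 0.12 for Zscan4d, from -0.31 to 0.03 for Zscan4f, from -0.05 to 0.44 for Zfp352 and from -0.91 to 0.01 for Tcstv3. Zfp352 ran from -0.13 to 0.53 at 24 h and from -0.07 to 0.60 between 72 and 24 h, and Zscan4d from -0.20 to 0.17 at 72 h. For H3K9me2 of Zfp352, input subtraction gave -0.60 in LT2i against serum and -0.88 against 24 h, values with no test since each culture had 1 input. Quantile normalization gave 1.02 and 0.86, and 10 kb on either side gave 0.47 against serum, each called except the 10 kb value against 24 h (0.29). The cause was not tested. The bin of the gene start gave no value for any member. Reads per library were fewest for Tcstv3 (13 to 67) and Zfp352 (16 to 33).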
